A study of Mus musculus with 12 samples.

Results

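The genes described here are 54 genes of mitosis and chromosome segregation, out of 23725 genes in a table of RNA-seq values from the mouse subventricular zone. They were picked by symbol, for their known roles in dividing cells, with earlier results of these data known. All 54 were found in the table. The subventricular zone is the tissue along the lateral ventricle of the brain that holds adult neural stem cells and their dividing progeny. It came from male wild-type mice aged 2, 6, 18 and 22 months. The dissected tissue was dispersed into single cells, from which Trizol was used to extract total RNA. Each age had 3 libraries, 12 in all, and no treatment or engineered allele is given. The strain, C57BL/6, is named for the 2-month mice only. Nothing in the labels ties the 3 libraries at one age to different animals, so p-values reflect only how far these libraries vary, and that variation may be technical. The tissue is a mixture in which only some cells divide. Values are relative to the other RNA in a library. A lower value can come from a smaller share of dividing cells or from less of this RNA per dividing cell, among other sources. These cannot be told apart here.

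A cell that enters mitosis compacts its chromosomes with condensin and topoisomerase II, under the drive of the kinase CDK1 with its cyclins. Kinetochores then tie each chromosome to spindle microtubules, and the spindle checkpoint holds back the anaphase-promoting complex (APC/C) until all are attached. Motors, the chromosomal passenger complex and a contractile ring finally part the chromosomes and the cells. In the adult subventricular zone these genes mark activated stem cells, transit-amplifying progenitors and neuroblasts that are cycling, and dividing oligodendrocyte precursors use the same genes.

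Nearly all of the 54 genes were highest at 2 months and stood lower at each older age, with most of the decline in place by 18 months. Mean levels at 6, 18 and 22 months had a median of 70.3%, 51.2% and 49.9% of the 2-month mean. The mean was highest at 2 months for 53 of the 54 genes, against 28.4% of the 15663 genes tested. The exception was Anln, which encodes the actin-binding protein anillin of the contractile ring. The 6-month mean was below the 2-month mean for 53 genes and the 18-month mean below the 6-month mean for 51. Of all tested genes 49.9% had the first pattern and 49.9% the second. After 18 months the direction was mixed, with a 22-month mean above the 18-month mean for 28 genes and below it for 26. This split was near that of all tested genes, of which 54.5% had the higher mean at 22 months. The 28 depended on the first 22-month library and became 17 without it, 30 without the second and 29 without the third. Among all tested genes the share was then 54.1%, 53.9% and 53.7%. No member had a 22-month mean above its 2-month mean, against 52.8% of all tested genes.

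**Figure D1:**
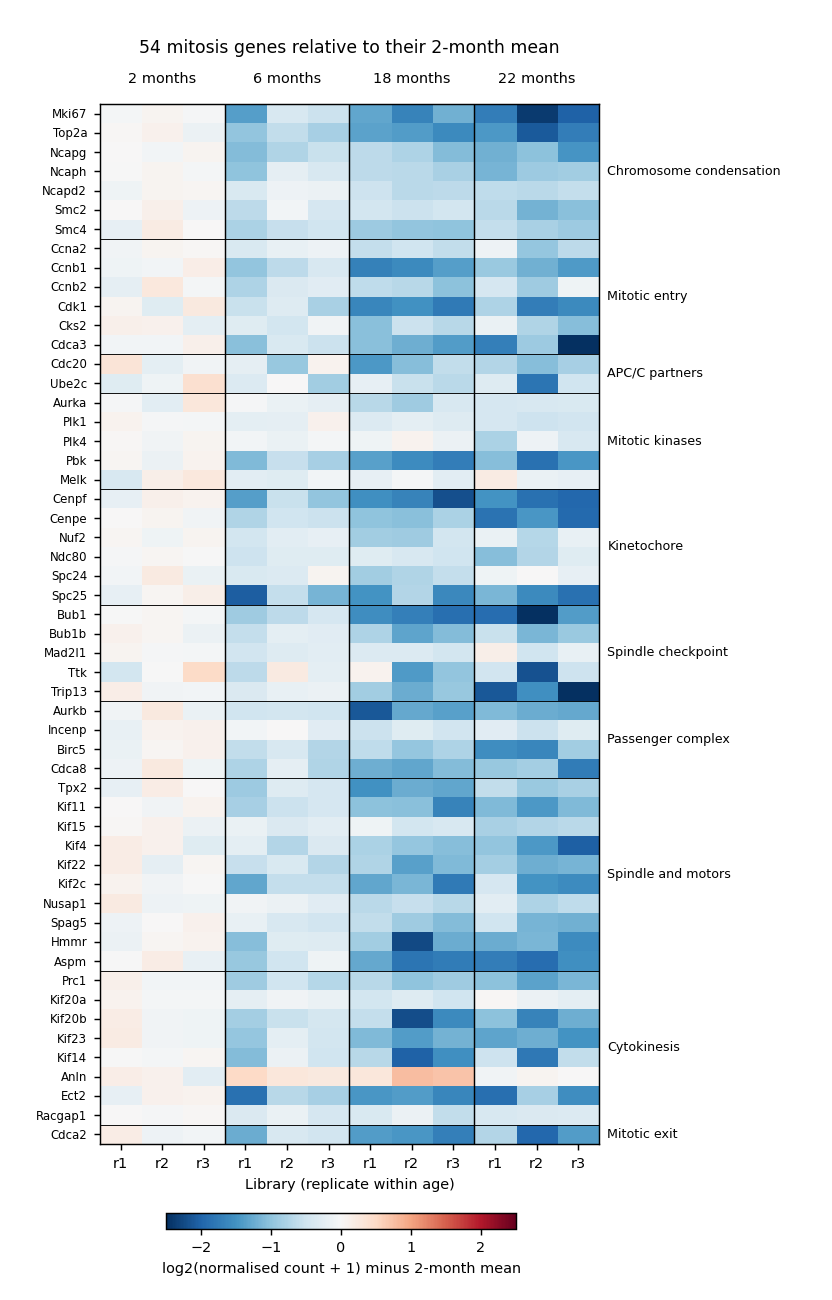
Heat map of the 54 genes (rows, grouped by role) in the 12 libraries (columns, 3 per age), as log2 of the normalised count plus 1 minus the mean of the 2-month libraries. Blue is lower and red higher than at 2 months: the 6-month columns are paler than the 18- and 22-month columns, the first 6-month library is darker than the other two, and Anln is the row that turns red.

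The values are normalised counts, reads divided by a size factor of the library, and all 54 members passed the filter, which asked for 10 or more normalised counts in 3 or more of the libraries. Libraries held 6381390 to 15962517 reads on genes. Reads per member and library ran from 10 to 911 at 2 months and from 0 to 689 at 22 months, with medians of 59, 55.5, 38.5 and 24 over the 4 ages. The 22-month libraries are thus the least precise for these genes, and a count of 0 allows up to 1.74 to 4.41 normalised counts in a library, counting error only. Values below are normalised counts in replicates 1, 2 and 3 of each age in turn, errors of means are standard deviations (n = 3), and differences are log2 fold changes of the normalised count plus 1, older minus younger, with standard errors from limma. A member is said to fall or rise where its Benjamini-Hochberg adjusted p over all 15663 genes was under 0.05.

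Summed over the 54 genes, the level was 5992, 6194 and 5863 normalised counts at 2 months and 4254, 5008 and 4773 at 6 months. It was 3794, 3981 and 3887 at 18 months and 3653, 3172 and 3341 at 22 months. The 4 ages did not overlap on this sum. Much of it at the older ages was Anln: without that gene the means were 5299 ± 118, 3774 ± 471, 2804 ± 113 and 2679 ± 282, and the libraries of 18 and 22 months overlapped. As a share of all reads the 54 genes took 0.0637% to 0.0668% at 2 months and 0.0338% to 0.0398% at 22 months. The first 6-month library stood apart from its age, being the lowest of the 3 for 37 of the 54 genes, against 36.5% of all tested genes. The first 22-month library was the highest of its age for 33 genes, against 33.4%.

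In a test for any difference over the 4 ages (limma F test), 45 of the 54 genes passed, against 31.5% of all tested genes. The genes that did not were Mad2l1, Plk1, Plk4, Cks2, Ccnb2, Ube2c, Ttk, Melk and Aurka, with adjusted p from 0.0678 for Aurka to 0.759 for Melk.

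The promoters of these genes are printed because most members moved together and many carry 2 short motifs that are known from cell-cycle genes. The cell-cycle genes homology region (CHR), written TTTGAA and also TTCGAA, is known to bind the MuvB complexes that hold such genes silent in resting cells and activate them in G2 and M phase. The CCAAT box binds the factor NF-Y. RefSeq windows on GRCm38.p6, from 250 bases before to 50 bases after the gene start, were matched for 45 of the 54 members (47 windows). Of these windows 37 (78.7%) held a CHR on either strand, against 19.2% of 32851 windows of all genes. A CCAAT was found on either strand in 34 (72.3%), against 37.4%, and both motifs in 31 (66.0%), against 7.53%. A match is a run of letters and not a measured binding site. The 5 windows below are those of a chosen panel of 18 members with a CHR and the most CCAAT boxes, those with more CHR matches being taken where CCAAT counts tied. Capitals mark both motifs and their reverse complements.
Top2a: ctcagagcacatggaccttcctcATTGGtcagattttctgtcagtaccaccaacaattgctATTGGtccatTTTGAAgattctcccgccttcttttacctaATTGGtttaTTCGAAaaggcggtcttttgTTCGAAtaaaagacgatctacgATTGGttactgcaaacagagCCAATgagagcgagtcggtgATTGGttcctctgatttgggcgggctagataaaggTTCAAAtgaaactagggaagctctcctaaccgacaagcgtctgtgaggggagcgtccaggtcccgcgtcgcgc
Ube2c: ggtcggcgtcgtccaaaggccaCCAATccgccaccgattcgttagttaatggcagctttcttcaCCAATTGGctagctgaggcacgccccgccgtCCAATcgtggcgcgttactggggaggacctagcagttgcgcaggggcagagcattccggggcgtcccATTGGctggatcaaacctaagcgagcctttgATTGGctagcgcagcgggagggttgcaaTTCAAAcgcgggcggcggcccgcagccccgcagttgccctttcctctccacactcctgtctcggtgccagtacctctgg
Ccnb2: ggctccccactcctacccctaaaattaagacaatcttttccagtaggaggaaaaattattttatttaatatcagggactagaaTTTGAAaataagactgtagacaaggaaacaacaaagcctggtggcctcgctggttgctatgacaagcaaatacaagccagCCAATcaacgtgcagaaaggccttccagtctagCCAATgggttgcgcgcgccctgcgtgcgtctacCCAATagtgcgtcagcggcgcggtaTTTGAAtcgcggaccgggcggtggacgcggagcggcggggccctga
Cdk1: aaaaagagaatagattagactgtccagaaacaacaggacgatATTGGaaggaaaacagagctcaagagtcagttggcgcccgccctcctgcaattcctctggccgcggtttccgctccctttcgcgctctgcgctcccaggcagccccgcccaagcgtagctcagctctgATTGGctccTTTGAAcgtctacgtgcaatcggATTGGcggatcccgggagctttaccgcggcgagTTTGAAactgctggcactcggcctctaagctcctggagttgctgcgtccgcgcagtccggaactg
Mki67: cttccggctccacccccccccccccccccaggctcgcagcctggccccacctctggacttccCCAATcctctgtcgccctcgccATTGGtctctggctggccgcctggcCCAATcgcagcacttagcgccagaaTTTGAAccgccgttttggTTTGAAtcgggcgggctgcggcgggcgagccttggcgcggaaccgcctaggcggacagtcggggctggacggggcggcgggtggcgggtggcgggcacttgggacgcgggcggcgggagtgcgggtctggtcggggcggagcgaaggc
The Top2a window, chr11:99024140-99024439 (minus strand), held 4 CHR matches. The Ccnb2 window at chr9:70421505-70421804 (minus strand), the Cdk1 window at chr10:69352863-69353162 (minus strand) and the Mki67 window at chr7:135716330-135716629 (minus strand) held 2 each. The Ube2c window, chr2:164769679-164769978 (plus strand), held 1, and in it a CCAAT on each strand overlap in the run CCAATTGG. Members without a CHR in their window were Birc5, Ccnb1, Cenpe, Cks2, Mad2l1, Melk, Ncaph, Nuf2, Nusap1 and Plk4. Anln, the member that rose from 2 to 18 months, had 2 CHR matches and 0 CCAAT matches. The part of the motifs in the values was not tested.

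From 2 to 6 months 5 members fell in limma. They were Top2a, Smc4 and Ncapg of chromosome condensation, the kinetochore gene Cenpf and the central spindle gene Prc1. edgeR on the recovered reads called the same 5. DESeq2 called Top2a and Smc4 and gave no adjusted p for 46 of the 54 members, Ncapg, Cenpf and Prc1 among them. None of these tools called a member higher, and 1 (Anln) was higher at an unadjusted p under 0.05 in limma. Of all tested genes 0.319% fell and 0.607% rose in this comparison. The median difference over the 54 members was -0.50, against 0.00 over all tested genes, and 39 members had all 3 libraries of 6 months below all 3 of 2 months, against 10.5% of all genes. The calls rested on single libraries: 0 members were called without the first 6-month library or without the second 2-month library, 1 without the first 2-month library, 2 without the third 6-month library and 3 without the third 2-month library.

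From 6 to 18 months no member passed in limma, where 0.083% of all genes fell and 0.0702% rose. At an unadjusted p under 0.05, 30 of the 54 members did, against 1440 of all 15663 tested genes. DESeq2 on the recovered reads called 4 (Top2a, Ncapd2, Tpx2 and Aspm) and edgeR called 1 (Aspm), all lower at 18 months, and DESeq2 gave no adjusted p for 21 members. The median difference was -0.50 again, and 30 members had no overlap between the ages with 18 months lower, against 8.62% of all genes. Without the first 6-month library 4 members passed in limma, without the first 22-month library 2 and without the second 1.

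Over the longer spans most members fell. From 2 to 18 months 39 fell, against 3.35% of all tested genes, with a median of -0.94, and 1 (Anln) rose, against 3.94%. From 2 to 22 months 43 fell and 0 rose, against 17.2% lower and 18.4% higher among all genes, with a median of -1.02 against 0.02. These comparisons share the 2-month libraries. No member was higher at 22 than at 2 months in limma at an unadjusted p under 0.05, and neither DESeq2 nor edgeR called one higher. The libraries of 18 months lay wholly below those of 2 months for 48 members, against 13.6% of genes, and those of 22 months for 47, against 21.7%. From 6 to 22 months 19 fell, against 11.6%, with a median of -0.48. Without the third 18-month library the calls from 2 to 18 months numbered 25. Those from 6 to 22 months numbered 8 without the second 6-month library, and 11 without the third or without the second 22-month library. Of the 40 calls from 2 to 18 months 16 were lost without at least 1 library, and of the 43 from 2 to 22 months 6 were (Cdc20, Ube2c, Plk1, Plk4, Incenp and Nusap1). Of the 19 from 6 to 22 months 12 were, those of Cdk1 and Anln among them.

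From 18 to 22 months members were called in both directions. The median difference was 0.01, against 0.02 over all genes. Of the 54, 5 fell (Cenpe, Anln, Mki67, Smc2 and Trip13), against 10.2% of all tested genes, and 3 rose (Tpx2, Spc24 and Kif20a), against 8.63%. The share of members called was below the share of all genes called, 18.9% in either direction. The 95% interval of the difference spanned 0 for 39 members and lay within 1 log2 unit of 0 on both sides for 42. Without the first or the third 18-month library 2 members were called, and 4 without the third 22-month library. Without the first 22-month library 6 were called, all of them lower, and the median was -0.12, against 0.03 over all genes. A count test on the recovered reads called 2 (DESeq2, with no adjusted p for 4 members) or 4 (edgeR), all lower.

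**Figure D2:**
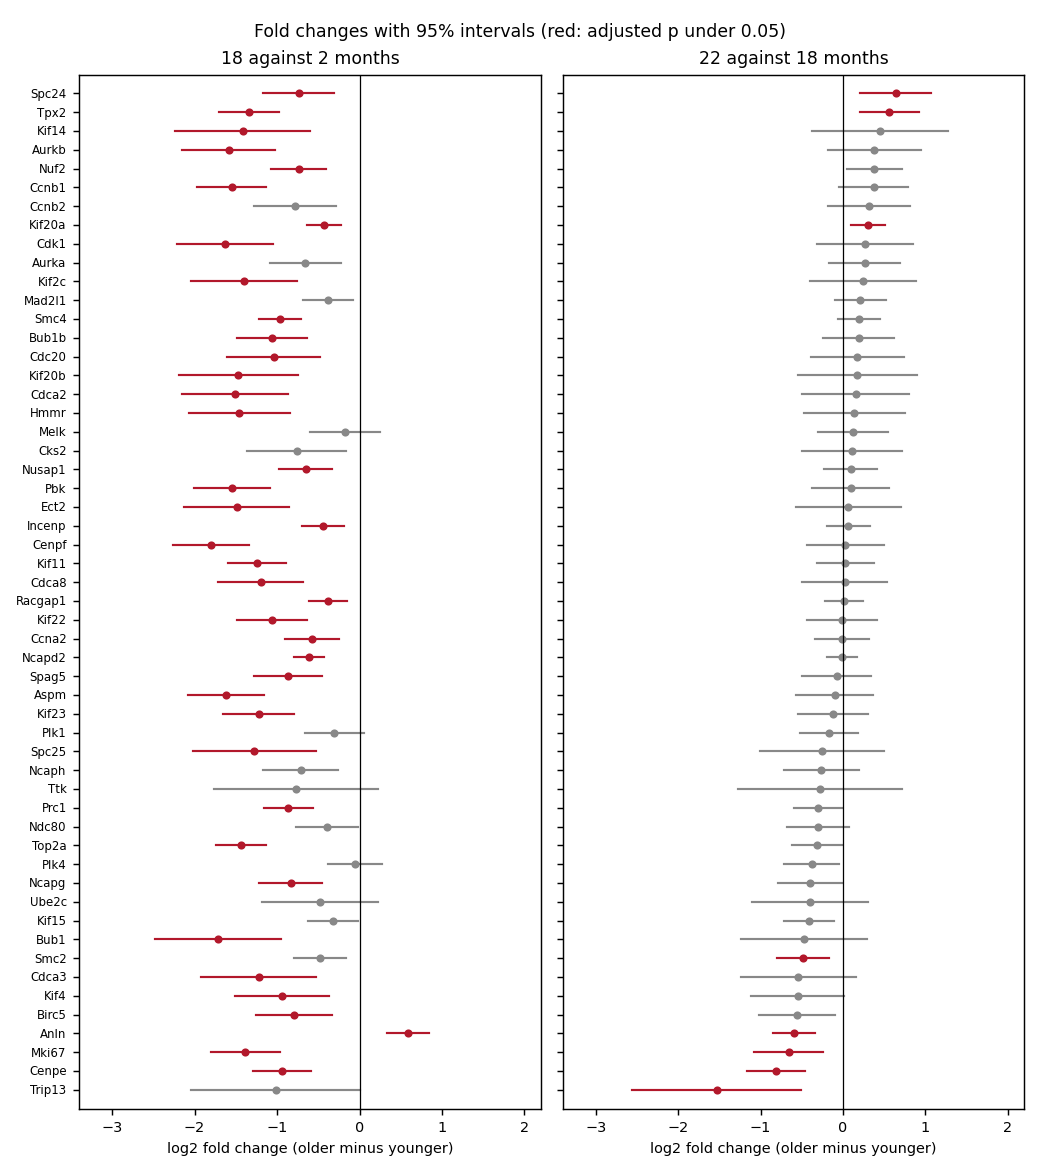
Log2 fold changes with 95% intervals for the 54 genes (rows, ordered by the change from 18 to 22 months), for 18 against 2 months on the left and 22 against 18 months on the right; red points have an adjusted p under 0.05 in limma. On the left 39 points lie red below 0 with Anln above it, and on the right the points are spread on both sides of 0, with 5 red below and 3 red above.

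All 7 genes of chromosome condensation fell from 2 to 22 months (median -0.98), 5 of them from 2 to 18 months and 3 from 2 to 6 months. For this and the roles below, the shares of all tested genes that fell were 17.2%, 3.35% and 0.319% in those spans. Mki67 (chr7:135689784-135716450), which encodes the Ki-67 protein coating mitotic chromosomes, had 768, 835 and 776 at 2 months, then 306, 598 and 546 at 6, 323, 248 and 346 at 18 and 237, 149.8 and 196 at 22 months. Every 2-month library was above every older one and every 22-month library below every younger one, while the first 6-month library lay among the 18-month values. Its difference from 2 to 22 months was -2.05 ± 0.20 (adjusted p = 3.78e-06, limma), one of the 3 largest among the members. The further step from 18 to 22 months was -0.66 ± 0.20 (adjusted p = 0.0283). It was -0.31 and did not pass once a trend with transcript length and GC content was removed, and it did not pass with DESeq2 or without any of 4 libraries (18 months 1 and 3, 22 months 2 and 3).

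Top2a (chr11:98992947-99024199), topoisomerase II alpha, which untangles sister DNA, had 392, 414 and 346 at 2 months, then 192, 251 and 214 at 6, 151, 145 and 126 at 18 and 141, 88.1 and 115 at 22 months. The ages stepped down without overlap until 18 months, and the 18- and 22-month libraries then overlapped. It fell from 2 to 6 months (-0.81 ± 0.14, adjusted p = 0.011) and stood -1.76 ± 0.14 below 2 months at 22 months (adjusted p = 7.02e-07, limma). The early fall did not pass without the first 6-month library or without the first or second 2-month library. Smc4, a core ATPase of condensin, had 199.7, 267 and 232 at 2 months, then 134, 154 and 164 at 6, 123, 117 and 114 at 18 and 153, 132 and 123 at 22 months. It had its lowest mean at 18 months, at -0.96 ± 0.12 against 2 months (adjusted p = 0.000116), and its 22-month libraries overlapped those of 6 months. Ncapg, a condensin I subunit, had 79.6, 75.2 and 82.98 at 2 months, then 36.7, 46.4 and 53.6 at 6, 50.2, 46.2 and 36.6 at 18 and 33.9, 38.2 and 27.96 at 22 months. The 2-month libraries were the highest, and the 6- and 18-month libraries lay on each other, at -0.80 ± 0.18 and -0.84 ± 0.18 against 2 months. The other condensin genes Ncapd2, Smc2 and Ncaph fell from 2 to 22 months, with differences of -0.63, -0.97 and -0.98. Smc2 also fell from 18 to 22 months (-0.48, adjusted p = 0.033). That call was lost with DESeq2, after removing the length and GC trend, and without replicate 1 or 3 of 18 months or replicate 2 or 3 of 22 months.

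Of the 6 genes of mitotic entry 4 fell from 2 to 18 months and the same number from 2 to 22 months. Ccnb1, cyclin B1, the partner that activates CDK1, had 60.6, 62.4 and 73.3 at 2 months, then 32.6, 41.2 and 49.2 at 6, 19.6, 21.1 and 24.4 at 18 and 33.9, 27.9 and 23.8 at 22 months. The 18-month libraries were below those of 6 months, and the 22-month libraries overlapped both. Its difference was -1.55 ± 0.20 at 18 months (adjusted p = 0.000153) and -1.18 ± 0.20 at 22 months (adjusted p = 0.000333), both against 2 months. Cdk1, the kinase that drives mitosis, had 38.03, 29.3 and 43.1 at 2 months, then 24.5, 29.03 and 20.2 at 6, 11.1, 12.2 and 10.05 at 18 and 20.9, 10.3 and 11.4 at 22 months. The first 22-month library reached the 6-month range and the other two lay among the 18-month values. Cdk1 fell from 2 to 18 months (-1.63) and from 2 to 22 months (-1.37). Ccnb2, cyclin B2, did not pass in any comparison, with 33.3, 46.8 and 37.7 at 2 months, then 22.4, 30.2 and 31.6 at 6, 24.7, 23.5 and 18.7 at 18 and 28.7, 20.6 and 36.2 at 22 months, and its 22-month libraries spanned values from the 18-month to the 2-month range. Cyclin A2 (Ccna2) and Cdca3, which helps destroy an inhibitor of CDK1, fell from 2 to 22 months, with differences of -0.58 and -1.77. Cks2, a small CDK-binding protein, had -0.66 and did not pass.

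The APC/C partners were Cdc20, the activator that the checkpoint restrains, and Ube2c, the ubiquitin-conjugating enzyme that works with the complex. Cdc20 fell from 2 to 18 months (-1.04) and from 2 to 22 months (-0.87). Ube2c had 35.7, 41.3 and 59.3 at 2 months, then 34.7, 44.7 and 23.7 at 6, 38.3, 29.98 and 27.3 at 18 and 35.2, 11.8 and 31.1 at 22 months. Its 22-month libraries lay below the lowest 2-month library, the second far below and the first close to it, and the ages overlapped otherwise. The fall from 2 to 22 months was -0.89 ± 0.33 (adjusted p = 0.0478, limma), and it passed neither with DESeq2 nor with edgeR. 22.8% of its exon bases also lie in exons of Tnnc2 on the other strand, and since strandedness is not stated the reads of the 2 genes cannot be told apart there.

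The 5 mitotic kinases had the median difference nearest to 0 of the classes, with 3 falls from 2 to 22 months (median -0.44) and 1 from 2 to 18 months. Pbk, a kinase of dividing cells, was the 1 that fell at both ages (-1.55 and -1.46). Aurka, the Aurora kinase of centrosomes and spindle poles, had 34.5, 29.3 and 43.1 at 2 months, then 34.7, 31.4 and 29.9 at 6, 21.3, 18.6 and 26.6 at 18 and 26.1, 26.4 and 26.9 at 22 months. Its 18-month libraries lay below those of 2 and 6 months and overlapped those of 22 months, with -0.66 ± 0.20 from 2 to 18 months (adjusted p = 0.0609). Plk1, the Polo-like kinase of mitotic entry and the spindle, had 45.2, 41.3 and 40.95 at 2 months, then 35.7, 36.00 and 45.7 at 6, 33.2, 35.7 and 33.7 at 18 and 31.3, 29.4 and 30.04 at 22 months. Its 22-month libraries were below all others, and the fall from 2 months was -0.48 ± 0.17 (adjusted p = 0.0365), a call lost with DESeq2, with edgeR, with a replicate block, and without any of the 3 libraries of 2 months or replicate 2 or 3 of 22 months. Plk4, which starts centriole duplication, fell by 0.44 from 2 to 22 months. That call was lost in 10 settings, DESeq2 and removal of the length and GC trend among them. It was also lost without any of the 3 libraries of 2 months or replicate 1 or 3 of 22 months. Melk, a kinase found in stem and progenitor cells, had 29.7, 44.02 and 47.4 at 2 months, then 32.6, 31.9 and 37.8 at 6, 34.02, 38.1 and 33.01 at 18 and 45.6, 35.3 and 34.2 at 22 months. All 4 ages overlapped, and the 95% interval of the difference from 2 to 22 months was -0.48 to 0.37 around -0.06.

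**Figure D3:**
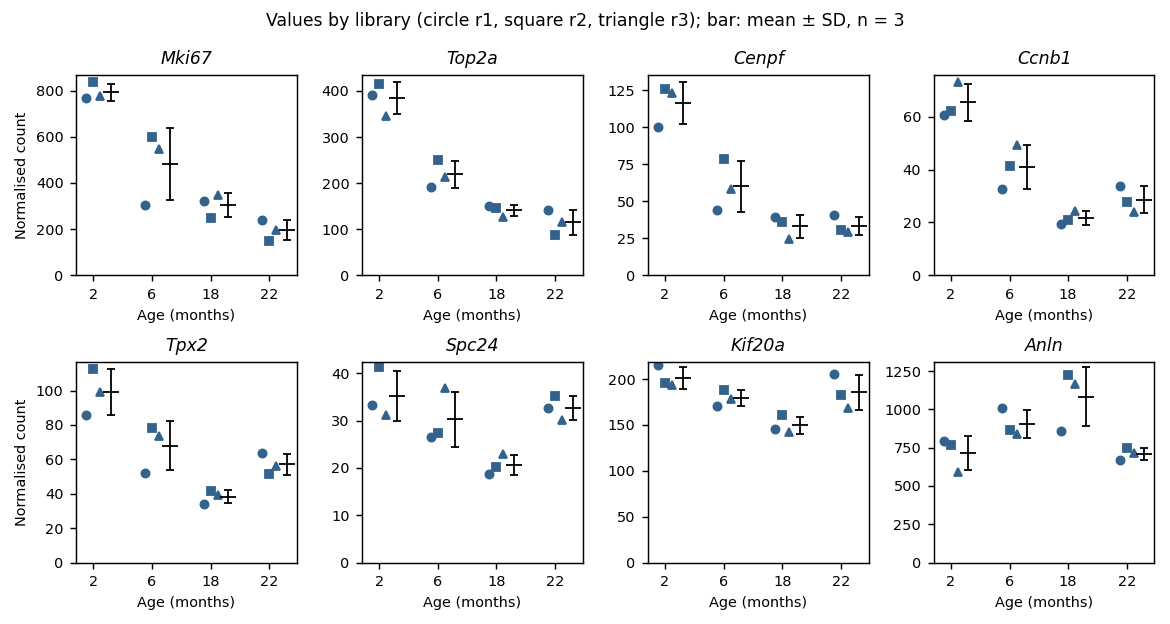
Normalised counts of 8 genes by age in months, one point per library (circle, square and triangle for replicates 1, 2 and 3) with the mean and standard deviation (n = 3) beside them; every axis starts at 0. Mki67, Top2a and Cenpf decline from 2 months on, Ccnb1 and Tpx2 are lowest at 18 months, Spc24 and Kif20a at 22 months overlap their 2-month values, and Anln is highest at 18 months.

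Among 6 kinetochore genes 5 fell from 2 to 18 months and 4 from 2 to 22 months. Cenpf (chr1:189640606-189688107), a large protein of the outer kinetochore, had 99.8, 126 and 123 at 2 months, then 43.8, 78.4 and 57.98 at 6, 39.1, 35.7 and 24.4 at 18 and 40.4, 30.9 and 29.00 at 22 months. The 2-month values were the highest and the 18- and 22-month values overlapped. It was at -0.97 ± 0.22, -1.80 ± 0.22 and -1.77 ± 0.22 against 2 months (adjusted p from limma 0.0449, 8.72e-05 and 3.21e-05). Cenpe, the kinesin that moves chromosomes to the spindle equator, had 83.2, 87.1 and 77.6 at 2 months, then 48.9, 58.1 and 56.2 at 6, 40.8, 39.7 and 47.4 at 18 and 22.2, 29.4 and 20.7 at 22 months. None of the 4 ages overlapped another. It fell again after 18 months (-0.81 ± 0.17, adjusted p = 0.00386), to -1.75 ± 0.17 from 2 to 22 months (adjusted p = 3.72e-06). The last step was -0.54 and did not pass in a fit with a replicate block and the length and GC trend removed.

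The 4 genes of the NDC80 complex, which grips microtubules, had unlike values. Spc25 and Ndc80 fell from 2 to 22 months, with differences of -1.53 and -0.70. Nuf2 fell by 0.74 from 2 to 18 months and had -0.36 at 22 months, which did not pass. Spc24 had 33.3, 41.3 and 31.3 at 2 months, then 26.5, 27.3 and 36.9 at 6, 18.7, 20.3 and 22.96 at 18 and 32.6, 35.3 and 30.04 at 22 months. The 18-month libraries were below all others, and the 22-month libraries lay among those of 2 and 6 months. It fell from 2 to 18 months (-0.74 ± 0.20, adjusted p = 0.0345) and rose from 18 to 22 months (0.64 ± 0.20, adjusted p = 0.0365, limma), with a difference of -0.10 between 2 and 22 months. Both calls rest on the same 18-month libraries. The fall was lost without any of the 6 libraries of 2 and 18 months, with DESeq2 and with a replicate block. The rise was lost without any of the 6 libraries of 18 and 22 months, with DESeq2 and with edgeR. The fits of these 4 genes were not tested against each other.

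Of 5 checkpoint genes 3 fell from 2 to 22 months. Bub1, a kinase that assembles the checkpoint at kinetochores, had 36.8, 38.5 and 35.6 at 2 months, then 19.4, 23.2 and 27.2 at 6, 11.9, 10.5 and 9.33 at 18 and 9.13, 2.94 and 13.5 at 22 months. The libraries of 2, 6 and 18 months stepped down without overlap, and those of 22 months lay around the 18-month values. The difference from 2 to 22 months was -2.19 ± 0.36 (adjusted p = 0.000272), with 7, 2 and 13 reads in the 22-month libraries. Trip13, the ATPase that recycles the checkpoint protein MAD2, had 0.688 normalised counts per kilobase at 22 months, the lowest level per length of the members, and its normalised counts were 16.6, 13.8 and 14.01 at 2 months, then 11.2, 12.8 and 13.2 at 6, 7.65, 5.67 and 7.18 at 18 and 2.61, 4.41 and 0 at 22 months. No age overlapped another. The largest fitted fall of any member was its -2.55 ± 0.49 from 2 to 22 months (adjusted p = 0.000827), but it rests on 5 reads at 22 months against 42 at 2 months. The ratio of summed reads per size factor was 0.141, with a 95% counting interval of 0.0436 to 0.356. From 18 to 22 months that ratio was 0.303, with an interval of 0.0909 to 0.802, and the fit gave -1.53 ± 0.49 (adjusted p = 0.0363), which did not pass without the third 22-month library (-0.82), without replicate 1 or 3 of 18 months, with edgeR or with a pseudocount of 5.

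Bub1b, the checkpoint protein BUBR1, had 60.6, 57.8 and 50.7 at 2 months, then 36.7, 47.03 and 45.7 at 6, 32.3, 21.9 and 25.8 at 18 and 37.8, 24.97 and 29.00 at 22 months. It was lowest at 18 months by mean, at -1.06 ± 0.20 (adjusted p = 0.00432) against 2 months, and at -0.88 ± 0.20 (adjusted p = 0.00311) at 22 months, when its libraries overlapped those of 6 and 18 months. Mad2l1, the checkpoint protein MAD2, did not pass in any comparison and had -0.17 from 2 to 22 months, with a 95% interval of -0.48 to 0.13. Ttk, the checkpoint kinase MPS1, spread widely between libraries of one age and had -1.05 (adjusted p = 0.0921).

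All 4 genes of the chromosomal passenger complex, which corrects wrong attachments and steers cytokinesis, fell from 2 to 18 and from 2 to 22 months. Aurkb, its kinase, had 27.3, 34.8 and 25.9 at 2 months, then 20.4, 20.9 and 20.2 at 6, 5.95, 11.3 and 10.8 at 18 and 13.04, 11.8 and 11.4 at 22 months. The libraries of the older pair of ages lay below all those of the younger pair, at -1.59 ± 0.27 (adjusted p = 0.00177) for 18 months and -1.21 ± 0.27 (adjusted p = 0.00242) for 22 months against 2 months. Birc5, the subunit survivin, had 46.3, 54.1 and 56.04 at 2 months, then 33.6, 38.9 and 30.7 at 6, 33.2, 25.9 and 30.1 at 18 and 16.9, 16.2 and 27.96 at 22 months. The 18- and 22-month libraries overlapped only at the third 22-month library, and Birc5 fell from 2 to 18 months (-0.79) and from 2 to 22 months (-1.35 ± 0.22, adjusted p = 0.00022). The fall to 18 months did not pass without any of the 6 libraries of those ages. Borealin (Cdca8) and the scaffold of the complex (Incenp) stood at -1.18 and -0.38 from 2 to 22 months. The Incenp call from 2 to 18 months was lost in 8 settings, DESeq2 and the replicate block among them. Its call from 2 to 22 months was lost with DESeq2 and without replicate 2 or 3 of 2 months or replicate 2 of 22 months.

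The 10 genes of the spindle and its motors all fell from 2 to 22 months (median -1.12), and 9 fell from 2 to 18 months. Kif11, the kinesin that pushes spindle poles apart, had 176, 164 and 188 at 2 months, then 98.9, 121 and 131 at 6, 85.9, 85.1 and 54.5 at 18 and 80.8, 64.6 and 80.8 at 22 months. The values dropped without overlap to 18 months, and those of 22 months lay within the 18-month range. It was at -1.24 ± 0.17 (adjusted p = 0.000216) and -1.22 ± 0.17 (adjusted p = 6.59e-05) against 2 months. Aspm, a spindle pole protein of neural progenitors, had 79.6, 91.7 and 70.1 at 2 months, then 40.8, 56.3 and 73.8 at 6, 32.3, 21.9 and 22.96 at 18 and 23.5, 20.6 and 26.9 at 22 months. The third 6-month library was still within the 2-month range, and the 18- and 22-month libraries overlapped. Its difference from 6 to 18 months, -1.10 ± 0.22 (adjusted p = 0.0648, limma), had the smallest adjusted p of the members in that step, and it stood at -1.72 ± 0.22 from 2 to 22 months.

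Tpx2 (chr2:152847964-152895321), which activates Aurora A on the spindle, had 85.6, 113 and 99.1 at 2 months, then 51.98, 78.4 and 73.8 at 6, 34.02, 41.3 and 39.5 at 18 and 63.9, 51.4 and 55.9 at 22 months. The 18-month libraries were below all others and the 22-month libraries overlapped those of 6 months. It fell by 1.35 from 2 to 18 months (adjusted p = 0.000149) and rose by 0.56 from 18 to 22 months (adjusted p = 0.0312, limma), while 22 months was still -0.78 against 2 months (adjusted p = 0.00229). The rise was 0.56 with DESeq2 and 0.55 with edgeR but passed in neither, and it did not pass without replicate 1 or 3 of either age. The other 7 genes are the motors Kif15, Kif4, Kif22 and Kif2c and the microtubule-binding proteins Nusap1, Spag5 and Hmmr. Their differences from 2 to 22 months ran from -1.49 for Kif4 to -0.56 for Nusap1. Kif15 fell at 22 months and not at 18 months, where it had -0.32, although the step from 18 to 22 months did not pass (-0.41 ± 0.15, adjusted p = 0.056).

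Of the 8 cytokinesis genes 7 fell and 1 rose from 2 to 18 months, and 5 fell from 2 to 22 months. Prc1, which bundles microtubules of the central spindle, had 162, 140.3 and 140.1 at 2 months, then 78.5, 105 and 88.7 at 6, 90.2, 72.9 and 78.9 at 18 and 71.7, 57.3 and 66.3 at 22 months. The 2-month libraries were well above the rest and the 22-month libraries below the rest. Most of its fall came by 6 months, -0.70 ± 0.14 (adjusted p = 0.0226), of -1.17 ± 0.14 in all by 22 months (adjusted p = 2.18e-05). Kif20a, a kinesin of the central spindle, had 215, 195 and 194 at 2 months, then 171, 188 and 178 at 6, 145, 160.5 and 143 at 18 and 206, 182 and 169 at 22 months. The 18-month libraries were the lowest, and those of 22 months lay across the ranges of 2 and 6 months. Kif20a fell from 2 to 18 months (-0.43 ± 0.10, adjusted p = 0.0137) and rose to 22 months (0.31 ± 0.10, adjusted p = 0.0366), with -0.12 between the ends. The fall did not pass without the first 2-month or the third 18-month library. The rise did not pass under TMM scaling, DESeq2 or edgeR, nor without replicate 1 or 3 of 18 months or replicate 1 or 2 of 22 months. Its exons share 29.3% of their bases with Cdc23 on the other strand, which had 508 to 689 normalised counts in a library, so its values are uncertain. The motors Kif23 and Kif20b fell from 2 to 22 months (-1.34 and -1.30), and so did the regulators of the contractile ring Ect2 and Racgap1 (-1.43 and -0.37). The Racgap1 call from 2 to 18 months was lost in 16 settings, DESeq2 among them. Its call from 2 to 22 months was lost once the length and GC trend was removed. Kif14, another kinesin, had -0.97 from 2 to 22 months, which did not pass. Cdca2, a phosphatase partner of mitotic exit, had -1.36 and fell.

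Anln (chr9:22331214-22389211) went against the rest. It had 795, 766 and 592 at 2 months, then 1010.0, 863 and 839 at 6, 862, 1222 and 1165 at 18 and 670.1, 746 and 714 at 22 months. The 6-month libraries were all above those of 2 months, and the 22-month libraries were below those of 6 and 18 months. It rose from 2 to 18 months by 0.59 (adjusted p = 0.00757, limma) and fell from 18 to 22 months by 0.59 (adjusted p = 0.00352), and the 95% interval of its difference from 2 to 22 months was -0.26 to 0.25. Per kilobase of transcript it was the most abundant member at every age, with 156, 196, 235 and 154 normalised counts at 2, 6, 18 and 22 months. Mki67, next at 2 months, had 78.8 per kilobase then and 19.3 at 22 months. Beyond dividing cells, anillin is known in myelinating oligodendrocytes, where it stabilises septins in myelin. The summed normalised counts of 7 oligodendrocyte markers (such as Mbp and Mog) were 77697, 77102 and 61011 at 2 months and 86879, 66674 and 67887 at 6 months. At 18 months the sums were 66643, 87425 and 88514, and at 22 months 51543, 68874 and 65647. The libraries with the lowest marker sum at 2, 18 and 22 months were those with the lowest Anln of their age. The first 2-month, first 6-month and second 22-month libraries were the highest of their age in both. Other extremes differed: at 6 months the second library had the lowest marker sum and the third the lowest Anln, and at 18 months the third had the highest marker sum and the second the highest Anln. From 18 to 22 months 5 of the 7 markers also fell (median -0.44), against 10.2% of all tested genes. From 2 to 18 months, by contrast, none of the markers passed in limma, DESeq2 or edgeR (0 at an unadjusted p under 0.05). Their part in the values of Anln was not tested.

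Genes of the same processes that are no members were counted in the same fit, where from 2 to 22 months 17.2% of all tested genes fell and 18.4% rose. From 2 to 22 months 32 of 61 tested other mitosis genes fell and 3 rose (median -0.69), of 65 in the table. Ckap2, a spindle protein, was at -1.80 ± 0.25 (49.1 ± 7.70 normalised counts at 2 months, 13.4 ± 2.13 at 22 months). Among the exceptions was Pttg1, securin, the inhibitor of separase, which rose by 0.83 from 141 ± 20.3 to 249 ± 13.5 normalised counts (adjusted p = 8.48e-05, limma). The centrosome gene Cep192 and the kinetochore scaffold Casc5 fell, with differences of -0.82 and -1.67. Of 43 DNA replication genes 13 fell and 2 rose (median -0.32). Among the falls were Uhrf1, which keeps up DNA methylation at replication (-1.29), the replicative helicase subunit Mcm6 (-0.77), Rrm1 of ribonucleotide reductase (-0.44) and the DNA polymerase gene Pole (-1.28).

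Among 24 genes of transcriptional regulators of the cell cycle 6 fell and 1 rose from 2 to 22 months (median -0.17), beside the same shares of all genes. Foxm1, an activator of mitotic genes, fell from 74.6 ± 6.45 to 36.9 ± 8.30 normalised counts (-1.02 ± 0.18, adjusted p = 0.00053, limma). E2f7, E2f2 and the retinoblastoma gene Rb1 also fell, with differences of -1.53, -1.17 and -0.39. The 27 genes of cohesin and of the APC/C core, which all cells use, were divided, with 11 lower and 6 higher (median -0.10). Pds5a, which regulates cohesin, its loaders Nipbl and Mau2, and Anapc1 of the APC/C fell, with differences of -0.75, -0.58, -0.28 and -0.37. From 2 to 6 and from 6 to 18 months no gene of these 4 lists passed in limma, DESeq2 or edgeR. DESeq2 gave no adjusted p for 48, 31, 11 and 3 of their genes in the first span and 37, 12, 5 and 0 in the second. At an unadjusted p under 0.05 the counts were 16, 16, 4 and 3 genes in the first span and 11, 9, 4 and 0 in the second, in the order other mitosis, replication, regulators, and cohesin with APC/C. Of all 15663 tested genes 2405 had such a p in the first span and 1440 in the second. From 2 to 18 months 18 of 61 other mitosis genes, 12 of 43 replication genes and 4 of 24 regulators fell. Of all tested genes 3.35% fell in that span. Of the 27 cohesin and APC/C genes 0 passed in limma, DESeq2 or edgeR. At an unadjusted p under 0.05 in limma there were 5, against 3414 of all 15663 tested genes.

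**Figure D4:**
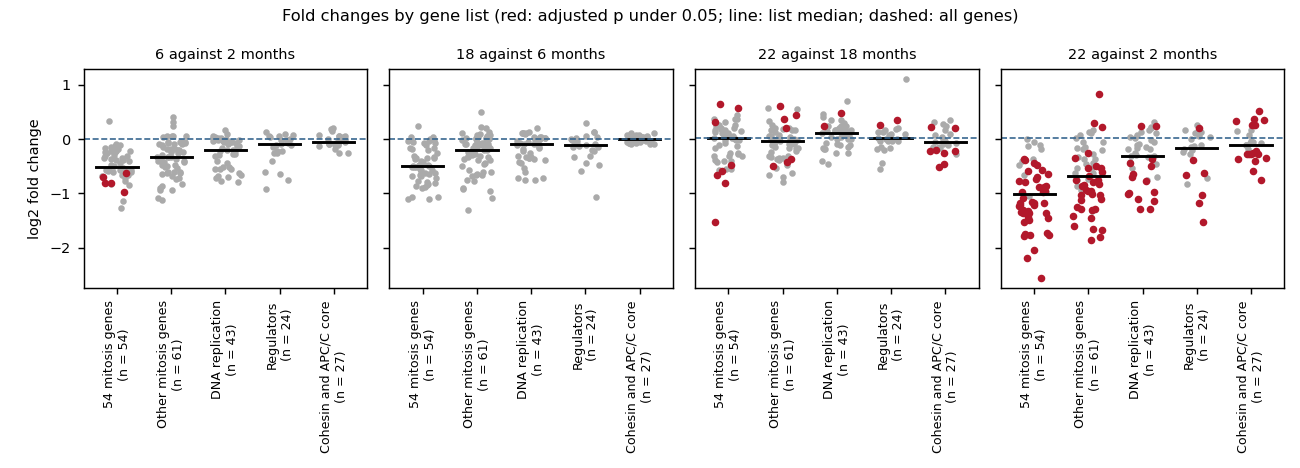
Log2 fold changes of the 54 genes and of 4 related lists (one point per gene, red where the adjusted p in limma was under 0.05, black line at the list's median, dashed line at the median of all genes) for 4 comparisons. The 54 genes have medians of -0.50, -0.50, 0.01 and -1.02 from left to right, and the medians of the cohesin and APC/C genes stay near 0 throughout.

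Markers of the cells that divide in this tissue were summed in the same libraries. Those of activated progenitors (12 genes, such as Egfr and Dlx2) had sums of 3429 to 3645 at 2 months and 2831 to 3212 at 6 months. The sums were 2759 to 2786 at 18 months and 2905 to 3034 at 22 months. The lowest 6-month sum was that of the first library, which was also low for the members. Neuroblast markers (15 genes, such as Dcx) averaged 18412, 16557, 15013 and 16049 at the 4 ages, and markers of oligodendrocyte precursors (10 genes, such as Pdgfra) 4785, 4412, 4449 and 3667. From 2 to 22 months 5 of 12, 11 of 15 and 6 of 10 of these markers fell, in that order, against 17.2% of all tested genes, and 1 progenitor and 1 neuroblast marker rose, against 18.4%. From 18 to 22 months 2 progenitor and 4 neuroblast markers rose, against 8.63% of all genes, and 1 progenitor and 5 precursor markers fell, against 10.2%. Rises in that step were not particular to these lists. Of other markers 7 of 9 of striatal neurons, 4 of 7 of ependymal cells and 2 of 10 of microglia rose, and 0 of these fell. Microglial markers (10 genes) averaged 4141, 4461, 5348 and 5938. No marker of any list was at 0 in all libraries. The part of cell numbers in the members' values was not tested.

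The 22-month libraries differed from the others in a property of the reads. Transcripts longer than 6000 nt took 20.4% to 20.9% of their reads and 22.8% to 25.5% in every other library, and those shorter than 1500 nt took 7.10% to 7.19% against 5.56% to 6.45%. No other age stood apart as a group in this way, so age and this property cannot be told apart for comparisons with 22 months. Single younger libraries leaned the same way. The 22.8% for long transcripts was that of the first 6-month library, and the 6.45% for short ones that of the second 18-month library. With the length and GC trend removed, 43 members fell from 2 to 22 months, 41 of them among the 43 called without that step. From 2 to 6 months 3 of the 5 calls remained with that step. The comparisons of 2, 6 and 18 months do not use the 22-month libraries except for the shared estimate of spread, but they do use the 2 younger libraries named here. The part of this property in their values was not tested. Exons of Kif4, Ncapg, Ccna2 and Prc1 share 11.1% to 15.1% of their bases with a gene on the other strand and those of Plk1 7.09%. Apart from these, Kif20a and Ube2c, members share under 5%.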

How the data were processed

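Strandedness, aligner, counting tool and annotation are not given in the sources used here. The authors deposited one table of signal values with 12 used columns, each a library's read counts scaled by its size factor; the submitters' processing notes name DESeq2 and the build mm10. With a tolerance of 1e-06, 100% of the deposited signal values were whole multiples of what 1 read is worth, so whole reads were recovered. 1 column of the authors' own comparison was not used, and 456 of the 23725 genes had no symbol.

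Log2 of the deposited normalised counts plus 1 was fitted with limma 3.58.1 in R 4.3.3, all 12 libraries together (eBayes, intensity trend on, 8.96 prior and 8 residual degrees of freedom). The fit took the 15663 genes that reached 10 normalised counts in 3 or more libraries. All 6 pairs of ages and an F test were computed, two-sided, with Benjamini-Hochberg adjustment over all tested genes and a threshold of 0.05; every adjusted p is from this fit unless another tool is named. The fit was tested on simulated data. edgeR 4.0.16 and DESeq2 1.42.0 on the recovered reads, other pseudocounts, filters and scalings, a replicate block, removal of a trend with length and GC content (available for 94.8% of tested genes, from GENCODE) and leaving out each library were alternatives. Leaving out all 22-month libraries was added after seeing the data. DESeq2 and edgeR called 39 and 41 members from 2 to 22 months, against 43.

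Members and gene lists were chosen with earlier results of these data known, so no test was made over a list. 1 progenitor and 1 oligodendrocyte marker are not reported here and were left out of their lists. Every library is printed for a panel of 18 members, for members with the smallest p in a comparison, for those with the largest and smallest difference from 2 to 22 months, and for members that rose; in related lists up to 4 called genes with the smallest p from 2 to 22 months are named. Positions and promoter windows are from RefSeq on GRCm38.p6, which was matched to 23666 of the table's identifiers. Overlaps of exons were counted in GENCODE.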

Additional observations from a re-analysis of the deposited data

How the results depend on the processing

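No call of a named member changed direction under any alternative. Of 62 calls of the named members, 38 passed in every setting that gave an adjusted p for them, and 22 were lost without at least 1 library. DESeq2 gave one for 57 of the 62, a filter of 50 normalised counts for 44 and the fit without the 22-month libraries for 24. Members called from 2 to 6 months numbered 5, and 3 with no filter on low values, 0 with no intensity trend, 2 with DESeq2, 3 after removing the length and GC trend, and 0 to 7 with 1 library left out. From 6 to 18 months the 0 became 4 with DESeq2, 1 with edgeR, 2 with the length and GC trend removed, 1 without the 22-month libraries (an alternative added after seeing the data) and 0 to 4 with 1 library left out. From 18 to 22 months the 8 became 5 with no filter, 2 with DESeq2, 4 with edgeR, 5 with the length and GC trend removed, 5 in a fit of only the ages compared and 2 to 8 with 1 library left out. A filter of 50 normalised counts left 30 members to test, of which 26 were called from 2 to 22 months, 25 from 2 to 18 months and 28 in the F test. The median difference from 2 to 22 months was -0.91 with that filter, -0.90 with a pseudocount of 5 and -1.20 to -0.93 with 1 library left out. Leaving out 1 library gave 25 to 43 calls from 2 to 18 months and 8 to 22 from 6 to 22 months. The causes were not tested.

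Libraries with the same replicate number did not deviate together (correlations of -0.187 to 0.159, over 0.1 in 2 of 18 pairs), so the numbers give no pairing. With the replicate block 3 members were called from 2 to 6, 0 from 6 to 18, 7 from 18 to 22, 41 from 2 to 22, 36 from 2 to 18 and 17 from 6 to 22 months, and 43 in the F test. With the block and the length and GC trend removed together the counts were 2 from 2 to 6, 1 from 6 to 18 and 3 from 18 to 22 months. Depth limits the 22-month values most, where a member had a median of 24 reads per library.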
